A study of Mus musculus with 6 samples.

Results

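The regions described are the upstream sides of isolated promoters, the stretch of DNA that lies before a gene whose neighbourhood holds no other annotated gene. They were chosen from the gene annotation alone: protein-coding genes of GENCODE mouse release M21 on chromosomes 1 to 19, at least 5 kb long, with no other gene of any type within 10 kb upstream of the gene start. This left 7054 of the 17031 protein-coding genes of that length on these chromosomes (41.4%), and the other 9977 had a gene nearby. For each of the 7054 genes, the share of the 10 kb upstream that was covered by peaks of the histone mark H3K79me2 (lysine 79 of histone H3 carrying 2 methyl groups) was set beside the share of the first 5 kb of the gene covered in the same library. The members lay about evenly on both strands (3500 plus, 3554 minus), had a median length of 31654 bp, and had their next upstream gene at a median distance of 26016 bp.

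The mark was mapped by ChIP-seq, in which DNA bound to an antibody target is pulled down and sequenced, in N2a, a long-established neuroblastoma line of the mouse. Control cells (CTR) carried the plasmid pLKO.1-shCTR with a non-target hairpin RNA, and NPM1 KD cells carried pLKO.1-shNpm1, 1 hairpin against Npm1, which encodes the nucleolar phosphoprotein nucleophosmin. The label gives both groups as day 3 after transfection, and puromycin selection is described for the knockdown experiments. Each group had 2 libraries, numbered 1 and 2, from different passages of this line, and 1 pooled input per group had no peak list here. The study asked where H3K79me2 changes when NPM1 is depleted, and the comparison here is that question put to the DNA before the gene start.

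H3K79 is methylated by DOT1L, which travels with complexes that bind elongating RNA polymerase II, so the mark is known to cover the early part of active genes and to fade downstream. Many mammalian promoters start transcription in both directions, and the polymerase that moves upstream makes short unstable antisense RNAs, which meet early polyadenylation signals and are degraded by the nuclear exosome, while 5′ splice sites bound by U1 snRNP protect the sense RNA. ChIP-seq does not keep strand, so a peak upstream of a gene start cannot be assigned to transcription in either direction, and no RNA was measured in these files.

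A few promoters with a covered upstream side, and as many without upstream coverage, show what lies next to the gene starts. Each line gives the 200 bases that end just before the start, written in the direction of the gene (5′ to 3′) from GRCm38, with every CG dinucleotide in capitals. None overlaps an exon of the RefSeq annotation. Ezh1 (chr11:101226464-101226663, minus strand) is discussed by the study, and Cdkn2a (chr4:89294654-89294853, minus strand) and Ide (chr19:37337853-37338052, minus strand) were covered over the whole 10 kb. Arpc2 (chr1:74235884-74236083, plus strand), Usp48 (chr4:137593555-137593754, plus strand) and Sub1 (chr15:11996984-11997183, minus strand) had tall peaks over the gene and 0 bp upstream.
Ezh1: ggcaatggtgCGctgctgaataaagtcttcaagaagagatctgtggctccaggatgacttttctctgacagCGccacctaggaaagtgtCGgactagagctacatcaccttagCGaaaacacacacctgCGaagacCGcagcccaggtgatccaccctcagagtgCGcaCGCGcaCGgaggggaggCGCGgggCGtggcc
Cdkn2a: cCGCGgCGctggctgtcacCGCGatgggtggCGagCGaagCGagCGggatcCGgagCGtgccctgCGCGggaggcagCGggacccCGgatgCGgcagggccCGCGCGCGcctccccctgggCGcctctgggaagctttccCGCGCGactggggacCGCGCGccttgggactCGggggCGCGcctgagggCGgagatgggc
Ide: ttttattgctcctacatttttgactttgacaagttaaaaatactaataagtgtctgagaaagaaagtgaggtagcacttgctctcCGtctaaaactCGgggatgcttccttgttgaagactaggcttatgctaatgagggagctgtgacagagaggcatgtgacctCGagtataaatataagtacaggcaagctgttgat
Arpc2: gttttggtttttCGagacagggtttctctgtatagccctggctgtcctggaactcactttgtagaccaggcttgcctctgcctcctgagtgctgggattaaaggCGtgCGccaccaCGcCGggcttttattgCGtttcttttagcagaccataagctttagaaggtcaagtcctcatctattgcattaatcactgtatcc
Usp48: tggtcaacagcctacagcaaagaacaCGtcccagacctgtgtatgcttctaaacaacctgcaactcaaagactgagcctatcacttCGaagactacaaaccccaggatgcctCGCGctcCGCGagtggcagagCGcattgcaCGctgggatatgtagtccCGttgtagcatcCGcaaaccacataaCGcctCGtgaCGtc
Sub1: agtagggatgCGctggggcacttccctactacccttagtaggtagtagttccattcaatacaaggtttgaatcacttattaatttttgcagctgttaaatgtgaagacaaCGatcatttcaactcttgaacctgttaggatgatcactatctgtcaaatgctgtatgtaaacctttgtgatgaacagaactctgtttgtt
The covered set held 13, 31 and 3 CG dinucleotides, and the uncovered set 6, 13 and 2, so these few sequences overlap in CG content. The classes as wholes are compared on this measure further on.

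The 4 libraries differed in depth, but not by group. Read counts were not analysed. The background pileup that the peak caller used, recovered from the fold and p of each narrow peak, was 11.9 and 7.65 in CTR 1 and 2 and 8.99 and 11.8 in NPM1 KD 1 and 2, so each group held 1 deeper and 1 shallower library. Broad peaks covered 9.43%, 8.92%, 10.1% and 9.76% of the chromosomes in the same order, and the NPM1 KD libraries were both above the CTR libraries. Of 18 marker genes of neuroblastoma or sympathetic neurons, 13 had their first 5 kb covered to some extent in all 4 libraries, among them Hand2, Isl1 and Mycn. The genes Th and Dbh, which make catecholamines, were at 0 in all 4, as were Nefl and Nefm. All marker genes of hepatocytes (4), fibroblasts (5), endothelium (3) and immune cells (4) were at 0, as were 3 of 4 for glia and 3 of 4 for muscle.

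At most isolated promoters that carried the mark, it stopped near the gene start. Broad peaks covered 37.3%, 36.4%, 38.2% and 37.3% of the first 5 kb in CTR 1, CTR 2, NPM1 KD 1 and NPM1 KD 2, whereas they covered 2.63%, 2.31%, 3.11% and 2.70% of the 10 kb upstream. The gene side exceeded the upstream side in 4 of 4 libraries, by 34.6 ± 0.399 percentage points (SD, n = 4; exact sign-flip permutation test, two-sided, p = 0.125, the smallest that 4 libraries allow). The upstream share was also under the share of all chromosomes covered in each library. It was 0 bp in all 4 libraries at 5012 members (71.1%), and above 0 in all 4 at 1366 (19.4%). In 50 members (0.709%) at least 50% of the window was covered in all 4.

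Isolation went with less upstream coverage. At the 9977 genes with a neighbour within 10 kb upstream, the same window was covered to 22.6%, 21.4%, 24.5% and 23.2%, and the isolated promoters differed from them by -20.2 ± 0.982 percentage points (SD, n = 4 libraries; exact sign-flip permutation test, two-sided, p = 0.125). Their gene sides also differed, by -12.2 ± 0.646 points, with the same p of 0.125 in the exact sign-flip permutation test. The windows of the other genes contain the neighbouring genes themselves, which the rule leaves out. Just inside and outside the limit of the rule the nearest 5 kb had similar values: the 689 members with their next gene at 10 to 12 kb had 4.92%, 4.31%, 5.78% and 5.08% of that stretch covered, and the 806 genes with their next gene at 8 to 10 kb had 4.39%, 3.66%, 5.40% and 4.71%.

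A gene was called marked when at least 50% of its first 5 kb was covered in each of the 4 broad lists, which held for 2604 members (36.9%). A further 3975 (56.4%) had 0 bp of that stretch covered in all 4, and 475 were partly covered. Upstream coverage followed this division: 91.3% to 91.6% of all upstream covered bases in a library lay at marked members. At the marked members the upstream window was covered to 6.52%, 5.72%, 7.70% and 6.70%, and at those without gene-side coverage to 0.134%, 0.119%, 0.154% and 0.137%. Among the latter, 3930 of 3975 were also at 0 upstream in every library.

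**Figure D1:**
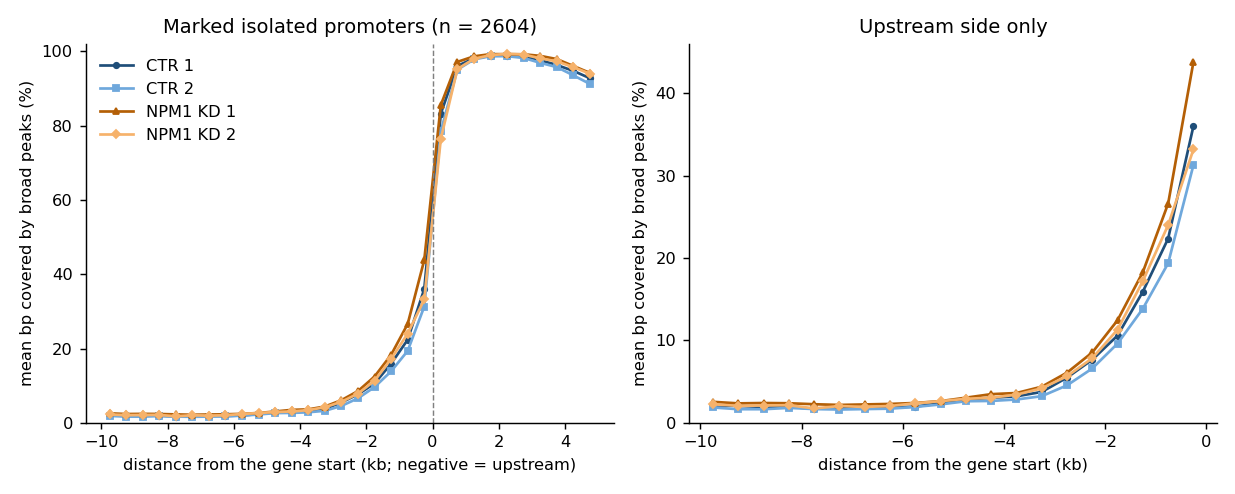
Percent of bases covered by broad peaks in 500-bp steps around the gene start at the 2604 marked isolated promoters, 1 line per library (left, from 10 kb upstream to 5 kb into the gene; right, the upstream side enlarged). Coverage drops from 76.5% to 85.6% in the first 500 bp of the gene to 31.3% to 43.8% in the 500 bp before it, and levels off near 2% beyond 6 kb.

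Around the start of a marked gene the coverage fell steeply within the first 500 bp and then decayed more slowly. The first 500 bp of the gene were covered to 83.2%, 78.5%, 85.6% and 76.5% in CTR 1, CTR 2, NPM1 KD 1 and NPM1 KD 2. The 500 bp just upstream were covered to 36.0%, 31.3%, 43.8% and 33.2%. Between 1000 and 1500 bp upstream the values were 15.9%, 13.9%, 18.3% and 17.2%, between 2500 and 3000 bp 5.49%, 4.55%, 6.09% and 5.65%, and between 9500 and 10000 bp 2.12%, 1.86%, 2.54% and 2.25%. In the genes without gene-side coverage the slope ran the other way, from 0.00785% to 0.0215% next to the start up to 0.380% to 0.392% at the far end of the window. These genes were chosen for 0 bp over the first 5 kb, which leaves out any peak across the start. Low coverage next to the start therefore follows in part from that choice.

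The upstream marks were in most cases the edge of the domain over the gene. In the 4 libraries, 72.7% to 81.8% of the upstream covered bases at marked members belonged to the peak that also covered the gene start. Another 4.98% to 5.98% lay in peaks that entered through the far edge of the window, and 12.8% to 21.6% in separate peaks. The gene start itself was covered at 60.5%, 52.0%, 65.2% and 50.2% of marked members, in all 4 libraries at 1160 of them (44.5%) and in none at 796 (30.6%). Where it was covered, the domain extended upstream by a median of 296, 370, 484 and 494 bp. Among the 796 with an uncovered start, the first covered base lay at a median of 150 to 250 bp into the gene (in steps of 50 bp), and over 1 kb into the gene at 4.40% to 8.04% of them, so the annotated start was not always the edge of the mark.

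An extent of at least 1 kb upstream, called reach here, was found in 398, 374, 511 and 414 of the 2604 marked members. These are 15.3% (95% exact binomial interval 13.9 to 16.7), 14.4% (13.0 to 15.8), 19.6% (18.1 to 21.2) and 15.9% (14.5 to 17.4), and the intervals cover counting error over promoters only. In 298 members (11.4%) the reach passed 1 kb in all 4 libraries, in 127 it passed 2 kb, in 30 it passed 5 kb and in 4 it passed 10 kb. At the other end, 715 marked members had 0 bp upstream in all 4 lists. The gene side was covered to a higher percent than the upstream side in all 4 libraries at 2587 of the 2604 (99.3%), and the reverse held at 2. Marked members were chosen for gene-side coverage, so this is largely set by the choice. Over all 7054 members the gene side was the higher in all 4 libraries at 2918 (41.4%) and the upstream side at 38. Both sides were at 0 in all 4 at 3930.

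**Figure D2:**
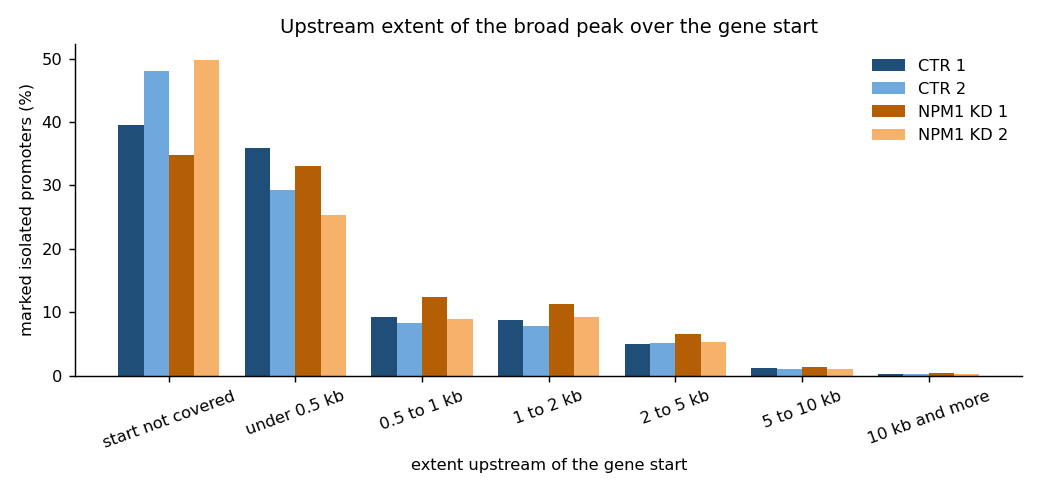
Share of the 2604 marked isolated promoters (percent, vertical axis) by how far upstream the broad peak over the gene start extends (horizontal axis), 1 bar per library. Between 34.8% and 49.8% have an uncovered start, and under 1% in each library extend 10 kb or more.

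Height differed between the sides as well as extent. Among members with a narrow peak summit on both sides (526, 456, 577 and 572), the tallest upstream summit had a median fold over background of 2.79, 3.12, 2.90 and 2.82, and the tallest gene-side summit 21.6, 20.4, 19.6 and 16.9. The upstream summit was the taller at 34, 36, 33 and 37 of them, 5.72% to 7.89%. Members with a taller gene-side summit more often had reach. When the marked members with a gene-side summit were put into 4 bins of equal size (635 or 636 each) by the mean fold of the tallest one, 3.46% of the lowest bin and 25.3% of the highest had reach in all 4 libraries, and the share with 0 bp upstream went from 56.1% to 8.02%. Fold and extent come from the same peak lists, so this is a description and was not tested.

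**Figure D3:**
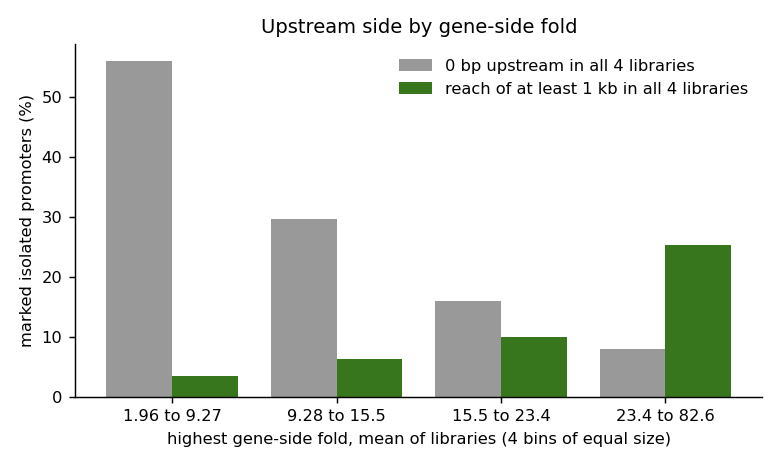
Marked isolated promoters split into 4 bins of equal size by the highest gene-side fold (horizontal axis, fold over background averaged over libraries), with the percent that had 0 bp upstream in all 4 libraries (grey) and the percent with reach of at least 1 kb in all 4 (green). The grey bars fall from 56.1% to 8.02% and the green bars rise from 3.46% to 25.3%.

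The longest upstream domains, ranked by the mean percent covered over the broad lists with narrow coverage breaking ties, were at Ide, Arhgap23, Hexim2, Cdkn2a, Asah1, Tnrc18, Trim39 and Slc38a1. Ide (chr19:37268743-37337852) encodes the insulin-degrading enzyme, and its domain ran on for 19486, 19428, 19456 and 19477 bp before the start in CTR 1, CTR 2, NPM1 KD 1 and NPM1 KD 2. The upstream edge at Ide thus lay at nearly the same place in all 4 libraries, and no RefSeq gene lies in the window. Cdkn2a (chr4:89274471-89294653), which encodes the cell cycle inhibitors p16 and p19ARF, had a reach of 13812, 10250, 14026 and 12667 bp. Its next upstream gene, Cdkn2b on the same strand, lies 11645 bp away. The domain thus ran into Cdkn2b in CTR 1, NPM1 KD 1 and NPM1 KD 2, and ended before it in CTR 2. At Trim39, an E3 ubiquitin ligase gene, 9937, 9704, 10000 and 9940 bp upstream were covered, against 77.7%, 78.5%, 100% and 95.9% of the gene side. The tallest upstream summit at Trim39 had a fold of 25.0 to 29.7.

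Several of these long domains have another annotated start upstream. The RefSeq model of the same gene began 11176 bp before the GENCODE start at Arhgap23, 9169 bp at Hexim2, 22871 bp at Asah1, 6006 bp at Tnrc18 and 525 bp at Slc38a1. At Ide, Cdkn2a and Trim39 no own RefSeq start was found farther upstream than the GENCODE start. A RefSeq gene of another name lay in the window of Cdkn2a (Gm12610) and of Slc38a1 (Gm46503). Hexim2 encodes an inhibitor of the elongation kinase P-TEFb, Asah1 acid ceramidase and Slc38a1 a glutamine transporter. Over all members, an own RefSeq start at least 1 kb upstream was present at 593 (8.41%), and at 48 of the 298 with reach in all 4 libraries (16.1%). A RefSeq gene of another name lay in the window of 1271 members. With both kinds left out, 5306 members remained, and their upstream coverage was 2.13%, 1.83%, 2.52% and 2.18%.

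At 13 members at least 10% of the upstream window was covered in every library while the first 5 kb of the gene was at 0. The 8 with the most were Alox8, Fscn2, Sdcbp2, Ctf2, Glipr1l1, Npepl1, I830077J02Rik and Ccm2l. Alox8 (chr11:69183932-69197843), a lipoxygenase gene, had 5474, 4745, 5131 and 5011 bp covered upstream with a tallest fold of 8.44 to 10.2. Ctf2, which encodes the cytokine neuropoietin, had 3494, 3465, 3554 and 3583 bp. Because the first 5 kb was at 0 by choice, none of these 8 could have a domain over the gene start (reach of 0 bp in every library). Their next upstream gene lay at 10033 to 12376 bp in 7 of them and at 20273 bp for Alox8, so most sit just past the limit of the rule.

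The opposite pattern, a marked gene side with nothing upstream in any broad or narrow list, was found at 703 members. Ranked by gene-side fold, these were led by Arpc2, Cpsf6, Usp48, Znrf1, Wdr75, Calm3, Sub1 and Ctdsp2. At Arpc2, a subunit of the actin-nucleating Arp2/3 complex, 99.3%, 98.8%, 94.9% and 95.5% of the first 5 kb was covered, with a tallest fold of 62.9, 60.7, 59.0 and 40.4. Calm3, a calmodulin gene, was covered to 97.9%, 97.9%, 98.1% and 97.7%. At Cpsf6, a subunit of the pre-mRNA cleavage machinery, 56.9%, 59.9%, 59.9% and 60.8% was covered and the mark began 1950 to 2150 bp into the gene (in steps of 50 bp). Sub1, the transcriptional coactivator PC4, was covered from 550 to 700 bp onwards.

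The reach class also differed in base composition, which the rule did not use. The observed over expected CpG ratio of the 1 kb upstream had a median of 0.606 in members with reach in all 4 libraries, 0.519 in other marked members with upstream coverage, 0.462 in marked members with none and 0.211 in members without gene-side coverage. The G+C content had medians of 51.7%, 49.1%, 48.4% and 45.2% in that order. The polyadenylation hexamer AATAAA, read away from the gene, was present in the 1 kb upstream of 44.6% of members and, read along the gene, in the first 1 kb of 24.6%. The 5′ splice site hexamer GGTAAG, read the same ways, was present in 12.5% and 31.9%. Over all 17031 promoters the shares were 40.6% and 24.1% for AATAAA and 14.6% and 30.1% for GGTAAG. By class, AATAAA was present upstream in 36.2% of the reach class, 44.1% of the other marked members with upstream coverage, 45.3% of marked members with none, 39.2% of partly marked members and 46% of those without gene-side coverage. GGTAAG was present upstream in 10.1%, 10.5%, 12.3%, 13.5% and 13.3% in that order. In the first 1 kb of the gene, AATAAA was present in 17.1%, 15.7%, 16.6%, 20.8% and 30.6% of these classes, and GGTAAG in 27.5%, 22.8%, 25.6%, 27.8% and 37.5%. These are matches of letters, given as a description. The classes differ in G+C content too, and so do the sides, with medians over all members of 47.2% upstream and 53.8% on the gene side. The part of G+C content in these shares was not tested.

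The next question was whether NPM1 KD moved the upstream side. In CTR its mean coverage was 2.47 ± 0.229% and in the knockdown 2.91 ± 0.292% (SD, n = 2 libraries per group), a difference of 0.435 percentage points. The groups did not overlap, but the nearest libraries, NPM1 KD 2 and CTR 1, were close, at 2.70% and 2.63%. The exact permutation test gave p = 0.333 (two-sided), the smallest that 2 libraries against 2 allow, so no difference of this kind could be called. The narrow lists gave a difference of 0.260 points with overlapping groups (exact permutation test, p = 0.667). Without NPM1 KD 1 the difference in the broad lists was 0.228 points, and without CTR 2 it was 0.273 points.

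**Figure D4:**
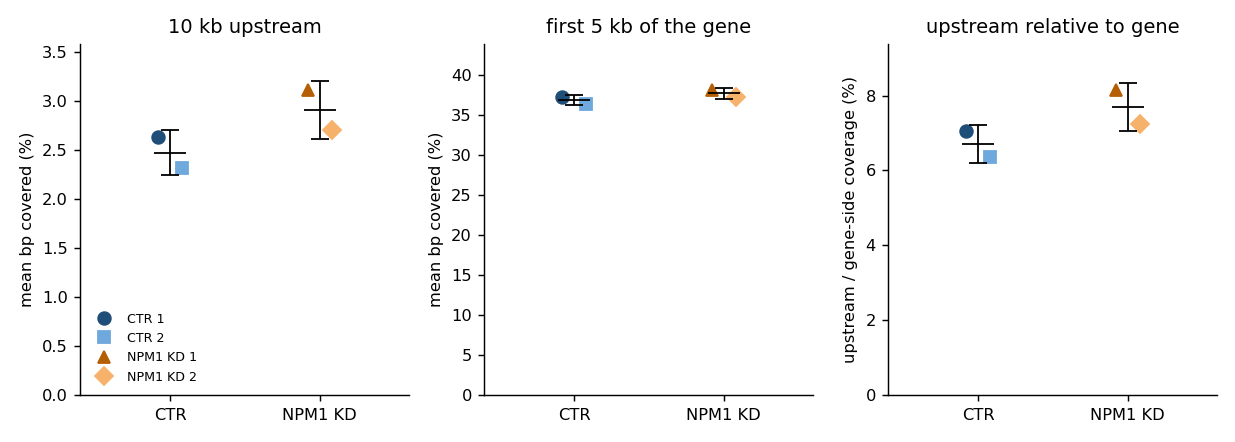
Mean percent covered by broad peaks at the 7054 isolated promoters over the 10 kb upstream (left) and the first 5 kb of the gene (middle), and the upstream value as a percent of the gene-side value (right). Points are libraries, and the black bar and whiskers give the mean and SD of the 2 libraries of a group. On the upstream side and in the relative value both NPM1 KD points lie above both CTR points, and on the gene side CTR 1 at 37.3% lies level with NPM1 KD 2.

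On the gene side the groups overlapped, at 36.9 ± 0.635% (CTR) and 37.7 ± 0.649% (NPM1 KD) covered (SD, n = 2; difference 0.866 points, exact permutation test, two-sided, p = 0.667). Between libraries of the same number the gene side differed by 0.875 and 0.856 points and the upstream side by 0.480 and 0.390 points, NPM1 KD the higher in both pairs. The methods tie each replicate to its own passage and transfection batch, and 2 pairs cannot give an exact p under 0.5. The upstream coverage relative to the gene side was 7.06% and 6.35% in CTR and 8.16% and 7.25% in NPM1 KD, a difference of 0.998 points (exact permutation test, p = 0.333). Reach of at least 1 kb at marked members was 2.94 points more frequent in NPM1 KD (exact permutation test, p = 0.333), with NPM1 KD 1 at 19.6% well above the other libraries, and without that library the difference was 1.07 points. In the 500-bp steps of the marked members both NPM1 KD libraries exceeded both CTR libraries in 19 of 20, the exception being the 500 bp next to the start. At the 1648 marked members with no other gene within 20 kb this held in 13 of the 20, and at the members without gene-side coverage in 10 of 20. Neighbouring steps share peaks and libraries, so these counts are no test. At the genes with a near neighbour the differences between groups were 1.86 points upstream and 1.82 points over the gene side (exact permutation test, p = 0.333 for each). The NPM1 KD libraries also had more of all chromosomes covered, and the part of that in the upstream difference was not tested.

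Region by region, the covered length was tested with limma on log2(covered bp + 1000) in every upstream window that held a peak in at least 1 library, with Benjamini-Hochberg adjustment. Of 7761 windows tested (2042 of them members), 0 were called at an adjusted p under 0.05 (0%). The lowest adjusted p was 0.0768. An unadjusted p under 0.05 was reached by 749 windows, 701 longer and 48 shorter in NPM1 KD, of which 179 were members (158 longer, 21 shorter). The median change was 0.05 on the log2 scale over members and 0.06 over all windows tested. When the broad peaks were limited to a −log10 q of at least 5, 12 of 7152 windows were called, 6 of them among the 1904 members tested. All 6 (Hmcn2, Jak2, Olfml1, Psmg4, Rfx3 and Zwint) were longer in NPM1 KD, as were the called windows of other genes except Cfap99. On the gene side 2 of 9190 windows were called (0.0218%), Alg5 and Pcbp4, and 0 of the 3079 members. Their changes were small, -0.116 ± 0.00062 and 0.155 ± 0.000636 on the log2 scale (SE). Neither gene was called in the limma fit with a variance trend. An unadjusted p under 0.05 in limma was reached by 458 of the 9190 windows, of which 129 were members. No call was made under limma's replicate block either.

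Counted without a model, both NPM1 KD libraries exceeded both CTR libraries in 559 of the 2042 members tested upstream (27.4%), against 31.7% of all windows tested. Both CTR libraries exceeded both NPM1 KD libraries in 116 members (5.68%), against 3.96% of all windows. The 2 pairs of shares are near each other, all windows include the members, and the difference was not tested. Over the gene side the counts were 422 of 3079 members (13.7%, against 17.1% of all windows) and 142 (4.61%, against 3.55%). Among the 298 members with reach in all 4 libraries, 115 were longer in NPM1 KD (38.6%) and 19 in CTR (6.38%), and among the 1591 other marked members with upstream coverage 409 (25.7%) and 91 (5.72%). The reach class was chosen by upstream coverage in these libraries, so this is a description with no test.

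The largest gaps between the groups (the distance between the nearest libraries of groups that do not overlap), chosen for that size and given as a description, were at Olfml1, Zfp777, Wdr26, Nipbl and Med26 on the side of NPM1 KD. Nipbl (chr15:8290617-8444463), which encodes the cohesin loader, had 8039 and 8063 bp covered upstream in CTR and the full 10000 bp in both NPM1 KD libraries, with the gene side at 100% in all 4. The limma change at Nipbl was 0.28 ± 0.0121 on the log2 scale (SE; adjusted p = 0.155 by limma), and it was called only in the limma fit with a variance trend (adjusted p = 0.0309). RefSeq places a start of Nipbl 20852 bp upstream. Olfml1 (chr7:107567446-107591094), an olfactomedin-like gene, had 5038, 5148, 9071 and 8828 bp, a change of 0.71 ± 0.0226 (SE; limma adjusted p = 0.146). Med26, a subunit of Mediator that takes part in elongation, had 5178, 4925, 6973 and 7933 bp (limma adjusted p = 0.373). Wdr26, part of a ubiquitin ligase, had 5126, 4615, 7396 and 7261 bp, and its RefSeq model starts 8920 bp upstream.

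**Figure D5:**
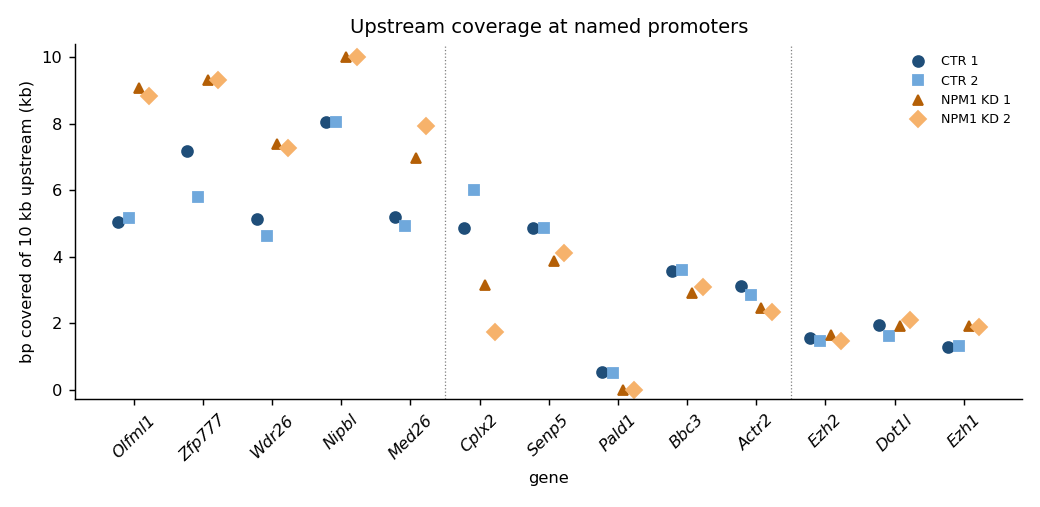
Covered length in the 10 kb upstream (kb, vertical axis) in each of the 4 libraries at the 5 members with the largest gap in favour of NPM1 KD (left), the 5 with the largest gap in favour of CTR (middle) and the 3 members the study discusses (right). The first 10 were chosen because their groups do not overlap. At Ezh2 and Dot1l the groups overlap, and at Ezh1 both NPM1 KD libraries are higher.

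In the other direction the gaps between nearest libraries were 399 to 1722 bp, against 1795 to 3680 bp above. Cplx2, which encodes the synaptic protein complexin 2, had 4871 and 5998 bp in CTR and 3149 and 1728 bp in NPM1 KD, with a gene side covered to 67.1%, 52.1%, 64.1% and 35.7% (limma adjusted p = 0.529 for the upstream window). Senp5, a SUMO protease gene, had 4868, 4863, 3860 and 4117 bp. Actr2, the Arp2 subunit of the Arp2/3 complex, had 3124, 2850, 2451 and 2344 bp, and the proapoptotic gene Bbc3 had 3566, 3602, 2907 and 3078 bp in a domain apart from the start. At Pald1 521 and 497 bp were covered in CTR and 0 in both NPM1 KD libraries (limma log2 change -0.59 ± 0.0156 SE, adjusted p = 0.141). An own RefSeq start lay 69385 bp upstream of Cplx2.

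Of the 6 genes the study discusses, Dot1l, Ezh1 and Ezh2 are isolated promoters, and Npm1, Ctcf and Kdm3a are not. Dot1l (chr10:80755206-80795461), the H3K79 methyltransferase gene itself, had 1937, 1605, 1908 and 2086 bp covered upstream, all joined to the domain over the gene. Ezh2 (chr6:47530139-47595341), the main H3K27 methyltransferase, had 1553, 1447, 1649 and 1456 bp, so at both genes the groups overlapped. RefSeq lists F830010H11Rik on the opposite strand across the Ezh2 start, a gene that GENCODE M21 does not place in the window. Ezh1 (chr11:101191115-101226463), its paralog, had 1292 and 1307 bp in CTR and 1915 and 1888 bp in NPM1 KD, and the groups did not overlap (log2 change 0.34 ± 0.014 SE, limma adjusted p = 0.155). The gene side was covered to 100% in all 4 libraries at the 3 genes, so their covered length could not rise there.

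Genes that act on H3K79 methylation and elongation were mostly marked with a short upstream edge. Of 34 listed genes 11 were members, 9 of them marked, with a median of 1.5% upstream. The median was 0% over all members, most of which were not marked. Over marked members it was 1.06%, 0.33%, 1.735% and 0.59% in CTR 1, CTR 2, NPM1 KD 1 and NPM1 KD 2, and the difference was not tested. Nelfa, a subunit of the pausing factor NELF, had 3652, 3562, 3946 and 3878 bp upstream. The subunits of the PAF1 complex Leo1 (281, 352, 331 and 331 bp) and Ctr9 (110, 77, 67 and 59 bp) and the elongation factor Supt5 (171, 260, 283 and 241 bp) had short edges, and Cdc73 had 250, 0, 351 and 0 bp. Among genes that limit upstream antisense RNA (the exosome and its adaptors, Integrator, U1 proteins and cleavage factors), 5 of 36 were members. The exonuclease gene Xrn2 had 2731, 2319, 2342 and 2442 bp, the termination factor gene Pcf11 145, 108, 137 and 71 bp, and the U1 protein gene Snrpc 0 bp in all 4.

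Of 32 listed transcription factors of neuroblastoma and neurons, 16 were members. Their median upstream coverage was 0.87%, 10 were marked, 5 had no gene-side coverage, 6 had upstream coverage in all 4 libraries and 3 had reach in all 4. Isl1, a LIM homeodomain factor of sympathetic neurons, had 4694, 4263, 4579 and 3573 bp covered upstream, Klf7 2941, 2867, 2495 and 2904 bp, and Meis1 1228, 2277, 2760 and 2309 bp. Sox11 had 2430, 1688, 2366 and 2523 bp. Lmo4 and Pbx3 were marked with 0 bp upstream in all 4.

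Neuronal cytoskeleton and adhesion genes gave 14 members of 25, 9 of them marked, with a median of 0% upstream. Dpysl3, a collapsin response mediator, had 2769, 2753, 3105 and 2539 bp, and the semaphorin receptor Nrp1 1561, 1111, 2204 and 1999 bp. Map2, Mapt and Gap43, which encode neuronal microtubule and growth cone proteins, were marked with 0 bp upstream in every library. In the cell cycle list 14 of 30 genes were members and 11 were marked, with a median of 1.37% upstream. Cdkn1b, the inhibitor p27, had 3818, 2932, 4558 and 4433 bp. Ccnd1, cyclin D1, had 4381, 5272, 6590 and 5507 bp, and Ccne2, cyclin E2, had 5976, 5132, 5873 and 6426 bp in a domain that did not touch its start, whereas Cdk1, Top2a and Ccnb1 kept to 56 to 232 bp. Of 40 genes typical of other tissues 19 were members and 0 were marked. The exception upstream was Des, the muscle gene for desmin, with 6675, 6641, 6674 and 5778 bp covered before its start and 13.8%, 9.1%, 13.8% and 0% of its gene side. In each of these lists 0 to 3 members had both NPM1 KD libraries above both CTR libraries and 0 or 1 the reverse, counts too small to set against the 31.7% and 3.96% of all windows tested.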

How the data were processed

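H3K79me2 ChIP-seq of N2a cells was analysed in 2 CTR and 2 NPM1 KD libraries. According to the methods and the submitters' processing notes, the authors trimmed paired-end reads with Trimmomatic 0.38, aligned them to mm10 (GRCm38) with Bowtie2 2.3.4.1 and called peaks per library with MACS2 (2.2.6 in the processing notes). Whether the inputs served as background is not given in the sources used here. The background recovered from sampled narrow peaks was the same within a library for 97.7% to 99.9% of them. What this says about the use of the inputs was not tested. The deposited fold is the ratio of pileup to background, the deposited −log10 p and −log10 q and the score are those of MACS2, and counts of reads were not analysed. Covered bases were computed from merged peaks in Python 3.11.15 (scipy 1.17.1, numpy 2.4.6, pandas 2.3.3; plots by matplotlib 3.10.9), and the covered-length function was tested on simulated data. Gene starts are the outermost GENCODE M21 gene ends. Values per library were compared by exact permutation tests, and covered length per window with limma 3.58.1 in R 4.3.3, which on simulated upstream windows recovered 88, 150 and 185 of 200 changed by 1, 2 and 4 log2 units, with 13, 16 and 21 false calls. On simulated gene-side windows it recovered 134, 170 and 184, with 9, 15 and 11 false calls. Covered length ends at 10 kb upstream and 5 kb over the gene. A change of 4 log2 units is more than such a window can show, and a window covered in full cannot become longer. Recovery within these limits was not tested. Named genes were the members among the study's 6 genes and the gene lists (the most informative printed), the 8 per pattern of highest upstream coverage, upstream without gene side and gene side without upstream, and the 5 per direction with the largest gap. Members and lists were chosen with earlier results of these data known.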

Additional observations from a re-analysis of the deposited data

How the results depend on the processing

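Over 106 combinations of a result and an alternative setting, 95 kept their direction and their side of the threshold or stayed within the spread, and no difference in coverage changed its sign. The 95 include the coverage differences under the replicate block, which are the same by arithmetic. The share of marked members with reach was 16.3% as the mean of the 4 libraries. It was 7.88% with narrow peaks, 19.4% from the start of the longest protein-coding transcript, 26.1% for a reach of 0.5 kb and 6.99% for a reach of 2 kb. The members called by limma upstream went from 0 to 6 with a −log10 q of at least 5 (lowest adjusted p 0.0167) and to 1 with a variance trend, and stayed at 0 with narrow peaks, a 5 kb window, a pseudocount of 200 bp, windows covered in all 4 libraries and without any 1 library. On the gene side they went from 0 to 8 with a −log10 q of at least 5, and to between 45 and 91 without 1 library, where the lone library of a group was assumed to vary like the other group. The direction of these last calls changed with the library left out. They were mostly longer in NPM1 KD without CTR 1 or without NPM1 KD 2, mixed without CTR 2 and mostly shorter without NPM1 KD 1. The cause was not tested.

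Leaving out 1 library at a time, the upstream difference ranged from 0.228 to 0.642 percentage points, the gene-side difference from 0.407 to 1.32, the relative difference from 0.544 to 1.45 and the reach difference from 1.07 to 4.75 points. With the replicate block the differences of 0.435, 0.866 and 0.998 cannot change, because each number occurs once in each group. That setting is therefore no check on them. With the block, limma called 0 windows on either side (lowest adjusted p 0.381 upstream). The methods give each replicate its own passage and transfection batch, the labels do not say that a number is shared between groups, and the deviations of same-numbered libraries had a correlation of 0.124 across upstream windows and 0.258 across gene-side windows. Leaving out members with a RefSeq gene of another name or an own RefSeq start at least 1 kb upstream was added after the data were seen. It gave an upstream difference of 0.373 points. Depth limits all of this: a covered base says that a peak was called, not how many reads lay there, and with 2 libraries a group no permutation test could pass 0.05.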
